A study of Homo sapiens with 6 samples.

Results

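The genes described here build, load and regulate the molecules by which a cell shows peptides or stress signals to T cells and natural killer cells. They comprise 39 named genes of major histocompatibility complex (MHC) class I, MHC class II, the ligands of the activating receptor NKG2D and class I-like molecules. They were followed on 6 arrays of 2 human pancreatic ductal adenocarcinoma lines, Panc1 and BxPC3, each as control cells and as cells labelled knockout of KDM6A, a histone demethylase. A gene entered with its brightest probe set that carries a single gene symbol, which gave 38 of the 39 genes (of 19775 on the array) and left out PSME2. Of the 38, 34 lay above the median of all probe sets on at least 1 array and were among the 14387 genes tested. HLA-DMA, HLA-DPA1, CD1D and ULBP1 did not, and their values are given without a test.

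Panc1 was hybridised as 1 control array and 1 knockout array, and BxPC3 as 2 control and 2 knockout arrays. Control cells carry unedited KDM6A, and the labels do not say whether they received a vector. Knockout cells of either line received the lentiCRISPR v2 vector with a guide against KDM6A, were selected in puromycin and were cloned by limiting dilution, so that a knockout group may stand for a single clone. The labels do not say whether the 2 arrays of a BxPC3 group come from separate cultures, and p-values measure only the spread between these arrays, which may be technical. All values are log2 RMA summaries, a difference is knockout minus control, and a difference of -1 is a 2-fold lower value.

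In class I presentation, a heavy chain pairs with beta-2-microglobulin (B2M) in the endoplasmic reticulum and receives a peptide cut by the proteasome, carried in by the TAP transporter and trimmed by ERAP aminopeptidases. NLRC5 is the transactivator of class I genes and CIITA that of class II genes, and both act through the RFX complex on promoter boxes that include a Y box, while interferons raise class I genes further through response elements. Epithelial cells express class I constantly and class II mainly after interferon gamma. MICA, MICB and the ULBP proteins are class I-like surface proteins that stressed or transformed cells display and that NKG2D on natural killer cells and cytotoxic T cells recognises.

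RefSeq promoter windows, from 250 bases before to 50 bases after a transcript start on GRCh38.p14, were found for 34 of the 39 genes. The following 9 are shown because their genes carry the contrasts described below: heavy chain genes, the transporter genes and the immunoproteasome gene PSMB9, which fell in BxPC3, the MICA and MICB pair, and B2M and TAPBP, which did not pass the test. Capitals mark every match, on either strand, of 4 motifs: the interferon-stimulated response element core (GAAA, any 2 bases, GAAA), the gamma-activated site TTCNNNGAA, the Y box core CCAAT and the heat shock element pair GAANNTTC.
HLA-B, chr6:31357130-31357429, minus strand: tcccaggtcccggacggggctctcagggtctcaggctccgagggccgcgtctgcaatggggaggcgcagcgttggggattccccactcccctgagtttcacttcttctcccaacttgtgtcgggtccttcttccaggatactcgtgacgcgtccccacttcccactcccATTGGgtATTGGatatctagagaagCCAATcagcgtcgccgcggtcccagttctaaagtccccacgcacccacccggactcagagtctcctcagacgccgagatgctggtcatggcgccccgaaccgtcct
HLA-F, chr6:29723184-29723483, plus strand: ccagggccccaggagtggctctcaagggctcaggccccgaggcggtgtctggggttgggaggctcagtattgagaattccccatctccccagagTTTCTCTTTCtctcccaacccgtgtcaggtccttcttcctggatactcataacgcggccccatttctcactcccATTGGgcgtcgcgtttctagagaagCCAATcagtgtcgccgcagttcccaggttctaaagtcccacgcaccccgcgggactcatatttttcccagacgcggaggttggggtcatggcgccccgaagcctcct
TAP1, chr6:32853655-32853954, minus strand: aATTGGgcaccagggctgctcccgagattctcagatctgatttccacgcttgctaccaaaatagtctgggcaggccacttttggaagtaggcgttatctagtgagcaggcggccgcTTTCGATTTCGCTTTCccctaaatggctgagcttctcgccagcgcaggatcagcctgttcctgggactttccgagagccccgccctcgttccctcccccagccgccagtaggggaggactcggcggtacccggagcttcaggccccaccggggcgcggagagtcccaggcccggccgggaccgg
PSMB9, chr6:32853942-32854241, plus strand: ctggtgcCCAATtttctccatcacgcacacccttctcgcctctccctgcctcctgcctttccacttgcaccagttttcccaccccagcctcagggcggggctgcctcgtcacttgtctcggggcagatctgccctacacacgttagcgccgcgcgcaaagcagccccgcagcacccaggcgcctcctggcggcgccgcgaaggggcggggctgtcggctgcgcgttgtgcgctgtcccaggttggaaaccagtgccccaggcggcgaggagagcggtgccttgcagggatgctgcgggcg
TAP2, chr6:32838690-32838989, minus strand: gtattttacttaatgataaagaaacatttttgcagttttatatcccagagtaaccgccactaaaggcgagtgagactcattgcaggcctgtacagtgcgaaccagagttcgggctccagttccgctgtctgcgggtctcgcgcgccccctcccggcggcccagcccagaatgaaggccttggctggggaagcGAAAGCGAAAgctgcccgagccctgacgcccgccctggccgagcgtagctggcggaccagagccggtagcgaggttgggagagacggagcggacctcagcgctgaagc
MICA, chr6:31403345-31403644, plus strand: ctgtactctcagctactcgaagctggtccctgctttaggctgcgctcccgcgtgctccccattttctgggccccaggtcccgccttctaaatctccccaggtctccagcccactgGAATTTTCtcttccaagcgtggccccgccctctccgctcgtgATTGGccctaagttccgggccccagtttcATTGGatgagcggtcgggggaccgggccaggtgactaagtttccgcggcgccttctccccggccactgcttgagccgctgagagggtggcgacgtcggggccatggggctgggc
MICB, chr6:31497895-31498194, plus strand: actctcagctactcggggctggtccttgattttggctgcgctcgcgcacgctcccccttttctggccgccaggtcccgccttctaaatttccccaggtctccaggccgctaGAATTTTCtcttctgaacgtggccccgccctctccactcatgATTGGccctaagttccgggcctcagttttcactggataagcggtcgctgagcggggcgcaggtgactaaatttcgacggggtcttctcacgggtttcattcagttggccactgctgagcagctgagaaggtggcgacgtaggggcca
B2M, chr15:44711267-44711566, plus strand: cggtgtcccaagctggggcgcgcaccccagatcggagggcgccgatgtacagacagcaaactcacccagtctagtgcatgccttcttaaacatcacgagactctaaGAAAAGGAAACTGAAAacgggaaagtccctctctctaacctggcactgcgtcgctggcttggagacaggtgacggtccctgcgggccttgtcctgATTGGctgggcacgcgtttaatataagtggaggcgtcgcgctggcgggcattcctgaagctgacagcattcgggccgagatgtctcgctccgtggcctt
TAPBP, chr6:33314029-33314328, minus strand: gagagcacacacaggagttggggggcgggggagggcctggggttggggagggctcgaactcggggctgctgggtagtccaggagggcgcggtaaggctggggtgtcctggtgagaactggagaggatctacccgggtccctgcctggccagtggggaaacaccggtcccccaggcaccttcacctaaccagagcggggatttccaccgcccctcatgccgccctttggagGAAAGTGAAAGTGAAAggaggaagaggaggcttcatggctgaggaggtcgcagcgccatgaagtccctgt

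The HLA-B and HLA-F windows were 79.7% identical over 305 aligned columns, and those of MICA and MICB 78.2% over 316. TAP1 and PSMB9 start 487 bases apart and are read away from each other, so that their windows meet end to end over 13 bases. The interferon-stimulated response element core was in a window of 12 of the 34 genes, against 4.38% of all 27305 genes with a window. Those 12 were B2M, ERAP1, ERAP2, HLA-F, PSMB8, PSMB10, PSME1, PSME2, RFX5, TAP1, TAP2 and TAPBP. In the windows printed, its first base lies 156 bases before the start in HLA-F, 58 before in TAP2, 134 and 128 before in TAP1, 144 and 138 before in B2M, and 20 and 14 before in TAPBP. The paired matches in TAP1, B2M and TAPBP overlap. The Y box core was in 20 of 34 genes (39.7% of all genes), with matches 81, 74 and 56 bases before the HLA-B start and 82 and 57 bases before the HLA-F start. The heat shock element pair was in 5 of 34 genes (8.21% of all genes), namely CANX, HLA-G, MICA, MICB and MR1, and read GAATTTTC in MICA and MICB, 135 and 139 bases before their starts. The gamma-activated site was in 3 of 34 genes (9.38% of all genes). A match describes these letters and is not a measured binding site.

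KDM6A read 8.02 and 7.85 on the BxPC3 control arrays and 7.29 and 7.01 on the knockout arrays, a difference of -0.79 ± 0.12 (SE, limma adjusted p = 0.0329). The transcript was thus 1.73-fold lower in BxPC3 and still read above the array median. In Panc1 it read 6.73 in control and 4.06 in knockout cells. KDM6A protein was not analysed here. Array medians lay between 4.75 and 5.06. The 2 lines appear to have been summarised in separate RMA runs, because 0 probe sets had exactly equal values between lines against 629 to 2895 within a line, so no level is set against one of the other line. Of the 8 duct epithelial markers KRT7, KRT8, KRT18, KRT19, EPCAM, CDH1, MUC1 and SOX9, all were above the array median on at least 1 array, with a mean of 9.52 to 9.94 on the Panc1 arrays and 11.11 to 11.42 on the BxPC3 arrays. Of these 8, 2 fell in BxPC3 beside the presentation genes, against 3.58% of all genes. They were the mucin gene MUC1 (-1.26 ± 0.13, limma adjusted p = 0.0119) and the duct transcription factor gene SOX9 (-0.97 ± 0.07, adjusted p = 0.00487). The keratin genes KRT7, KRT8 and KRT19 lay above 0 there (0.125, 0.174 and 0.154) and did not pass. In Panc1 the E-cadherin gene CDH1 read 7.87 in control and 5.78 in knockout cells (-2.08). Of the 8 markers 5 lay below 0 in Panc1, and KRT8, KRT18 and MUC1 lay above it (0.028, 0.205 and 0.188). The part of these changes in the results was not tested.

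In BxPC3, 12 of the 34 tested genes fell in the knockout and 0 rose. Over all 14387 genes 3.58% fell and 1.14% rose. A further count at an unadjusted p under 0.05 gave 17 of the 34, against 19.9% of all genes, and 26 of the 34 lay below 0, against 49.3%. The genes that fell were the heavy chains HLA-B, HLA-C, HLA-E, HLA-F and HLA-G, the transactivator NLRC5, the transporter subunits TAP1 and TAP2, the immunoproteasome subunit PSMB9 and the NKG2D ligands MICA, MICB and ULBP2. Their differences lay between -0.39 and -0.89, the median of the 34 genes was -0.20, and the median of all genes tested was 0.00. Class II genes, the loading chaperones and the class I-like genes had 0 calls by limma. In cultured lines, fewer expressing cells and less RNA per cell cannot be told apart.

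The calls depended on which arrays entered the fit. The sign of the differences was less open to change. Filters, the variance prior, block terms and a fit of the BxPC3 arrays alone leave these estimates as they are. The knockout arrays of all 12 lay below both controls, as in 26.8% of all genes. Leaving 1 array out therefore cannot turn their sign. All 12 differences stayed below 0 under each of the 13 alternatives tried, but 0 of the 12 passed without control array 1 (limma adjusted p between 0.0694 and 0.426) or without control array 2 (0.0865 to 0.399), where 94 and 89 genes of all passed and the spread came from the knockout pair alone. The 12 were picked from a fit that holds these same arrays, so fits to part of the arrays are no separate support for them. Without knockout array 2, 5 passed, namely HLA-B, HLA-C, NLRC5, PSMB9 and TAP2, and without knockout array 1 the call of HLA-E ended (adjusted p = 0.0650).

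**Figure D1:**
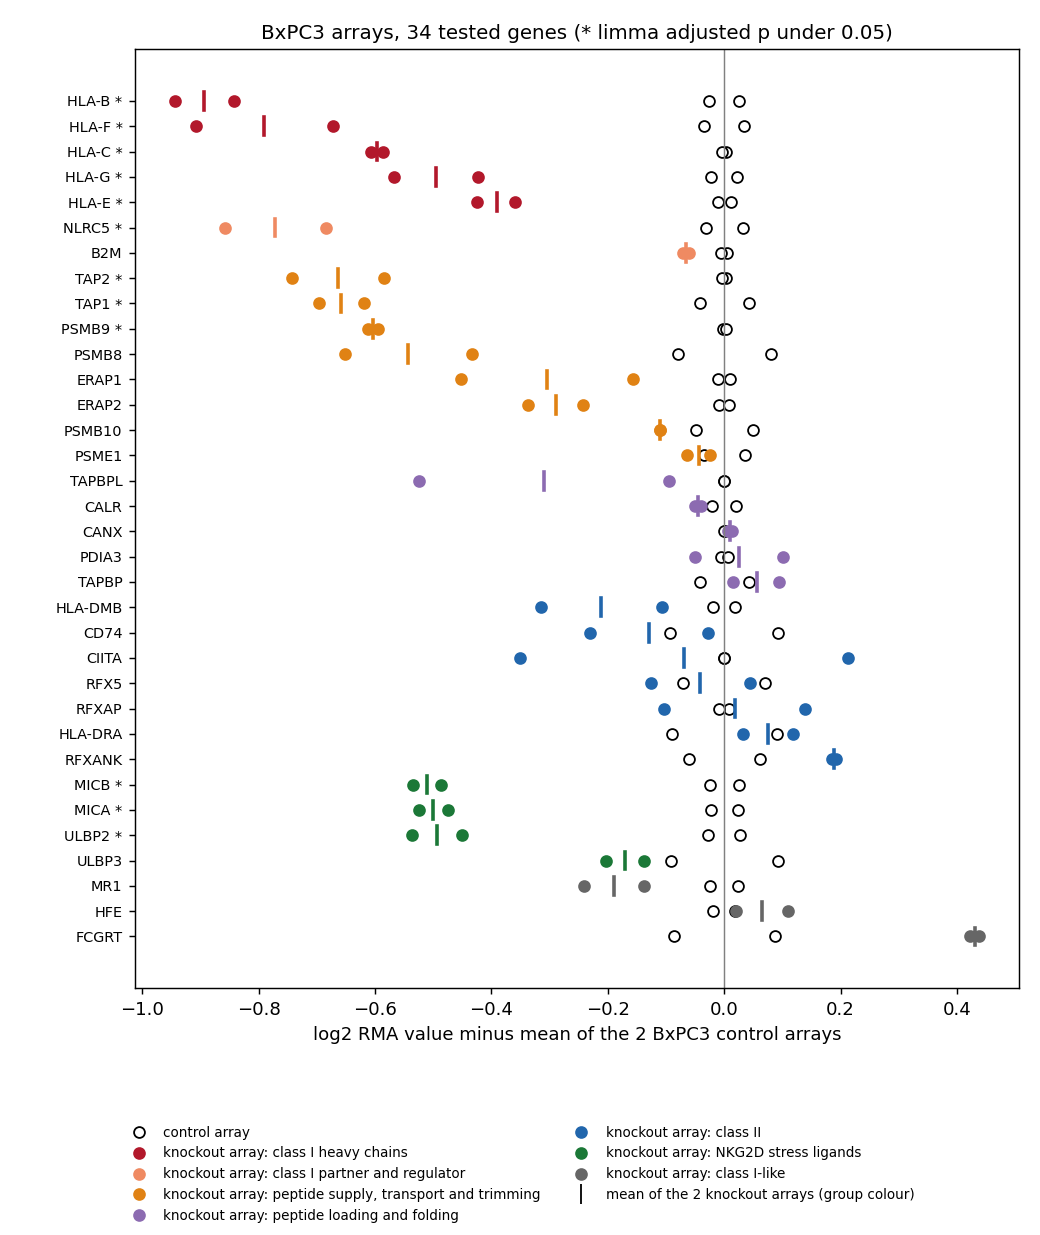
Each row is a gene, and the x axis is the log2 RMA value minus the mean of the 2 BxPC3 control arrays. Open circles are control arrays, filled circles knockout arrays coloured by gene group, bars the mean of the 2 knockout arrays, and asterisks the 12 genes past a limma adjusted p of 0.05; the knockout arrays of the heavy chains, NLRC5, TAP1, TAP2, PSMB9, MICA, MICB and ULBP2 sit to the left of their controls.

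The class I heavy chains fell together in BxPC3, 5 of 5, against 3.58% of all genes. HLA-B, which presents peptides to cytotoxic T cells, read 12.42 and 12.48 on the control arrays and 11.61 and 11.51 on the knockout arrays, a difference of -0.89 ± 0.07 (1.86-fold lower, limma adjusted p = 0.00694). HLA-C, which also binds killer-cell inhibitory receptors, read 12.49 and 12.48 on control and 11.90 and 11.88 on knockout arrays (-0.60 ± 0.06, adjusted p = 0.0136). For both genes the knockout arrays lay below both controls by more than the arrays of a group differed. The non-classical chain HLA-F read 10.89 and 10.83 against 10.19 and 9.95 (-0.79 ± 0.10, adjusted p = 0.0197). HLA-G, known as an inhibitory ligand at the placenta, read 11.41 and 11.36 against 10.96 and 10.82 (-0.50 ± 0.08, adjusted p = 0.0370), and its call ended under 6 of 13 alternatives. HLA-E, the ligand of the NKG2A receptor, had the smallest change of the 5. It read 11.08 and 11.06 on control and 10.65 and 10.71 on knockout arrays (-0.39 ± 0.07, adjusted p = 0.0456), and its call ended under 9 of 13 alternatives.

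Heavy chain sequences are so alike that their probe sets can read each other. The 5 genes have 17 probe sets, 15 of which carry the suffix _x_at for possible cross-hybridisation, and all 17 were lower in the BxPC3 knockout, with differences of -0.30 to -0.98. The 2 without that suffix were a probe set of HLA-E at -0.30 and a probe set of HLA-F at -0.65. That HLA-F probe set lay near the array medians, with 5.72 and 5.43 on control and 5.08 and 4.78 on knockout arrays. Values of a single heavy chain gene therefore cannot be told apart from those of its relatives with certainty.

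B2M, the shared light chain, did not pass beside them. It read 13.55 and 13.54 on the control and 13.49 and 13.48 on the knockout arrays, a difference of -0.07 ± 0.06 (limma adjusted p = 0.643), and its other probe sets gave -0.03 and -0.32. NLRC5, measured by 1 probe set, read 6.20 and 6.13 on control and 5.48 and 5.31 on knockout arrays (-0.77 ± 0.09, 1.71-fold lower, adjusted p = 0.0147).

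Peptide supply and transport was lower in part. All 8 tested genes lay below 0 with a median of -0.42, and 3 fell. Over all genes tested 49.3% lay below 0 and 3.58% fell. TAP1 read 8.89 and 8.97 on the BxPC3 control arrays and 8.24 and 8.31 on the knockout arrays (-0.66 ± 0.07, limma adjusted p = 0.0147). Its partner TAP2 read 8.85 and 8.85 against 8.27 and 8.11 (-0.66 ± 0.08, adjusted p = 0.0184). The TAP2 probe sets disagreed: others gave -0.58 and -0.41, but another gave 0.07, with control arrays at 7.59 and 8.17. PSMB9, the interferon-inducible catalytic subunit encoded beside TAP1, read 9.36 and 9.37 against 8.77 and 8.75 (-0.60 ± 0.06, adjusted p = 0.0133).

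The other immunoproteasome genes did not pass. PSMB8, encoded between TAP2 and TAP1, read 9.56 and 9.71 on control and 9.20 and 8.98 on knockout arrays (-0.54 ± 0.11, limma adjusted p = 0.0634), and it passed under 5 of 13 alternatives. PSMB10, the remaining inducible catalytic subunit, gave -0.11 ± 0.07 (adjusted p = 0.467), and PSME1, a subunit of the proteasome activator PA28, gave -0.05 ± 0.07 (adjusted p = 0.780). The aminopeptidases ERAP1 and ERAP2, which trim peptides in the endoplasmic reticulum, gave -0.30 ± 0.11 (adjusted p = 0.232) and -0.29 ± 0.07 (adjusted p = 0.107). Of the 5 probe sets of ERAP2, all 5 gave differences below 0, from -0.04 to -0.35. The constitutive proteasome, from a list of 17 genes of which 16 were tested, had a median of -0.04 and 0 calls by limma, with 0 at an unadjusted p under 0.05; its differences ranged from -0.14 to 0.12.

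Of the peptide-loading genes, 0 of 5 passed in BxPC3 by limma, and 0 had an unadjusted p under 0.05. The chaperones calreticulin (CALR) and calnexin (CANX) and the disulfide isomerase PDIA3 gave -0.04 ± 0.07, 0.01 ± 0.06 and 0.03 ± 0.08. TAPBP, or tapasin, which bridges class I to TAP, read 9.82 and 9.90 on control and 9.95 and 9.88 on knockout arrays (0.06 ± 0.07, adjusted p = 0.738), and these groups overlapped. TAPBPL, the tapasin-related peptide editor, read 8.20 on either control array and 8.11 and 7.68 on the knockout arrays (-0.31 ± 0.15, adjusted p = 0.341), so that its difference came mainly from knockout array 2. B2M and TAPBP hold the interferon-stimulated response element core in the windows printed above, as do TAP1, TAP2 and HLA-F, which fell. Of the 10 fallen genes with a window 3 hold it, and of the 24 other genes with a window 9 do. The 24 include CD1D, HLA-DMA, HLA-DPA1, ULBP1 and PSME2, which were not tested, and PSME2 is among the 9. PSMB9 counts as without it, although the TAP1 matches lie between the TAP1 and PSMB9 starts, outside the PSMB9 window. A difference between fallen and other genes was not tested.

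Class II genes did not pass, and CIITA, CD74 and the HLA-D genes read within about 1 unit of the array median or below it. Of 7 tested, 0 passed limma and 0 had an unadjusted p under 0.05, and their median difference was -0.04. HLA-DRA, the alpha chain of HLA-DR, read 4.39 and 4.21 on the BxPC3 control arrays and 4.42 and 4.34 on the knockout arrays, below each array's median. The invariant chain CD74 read 5.96 and 5.77 against 5.63 and 5.84, and CIITA 5.41 on either control and 5.06 and 5.62 on the knockout arrays; in both genes the groups overlapped. HLA-DMB, which helps exchange peptides on class II, gave -0.21 ± 0.09 (adjusted p = 0.297). The untested HLA-DMA read 4.38 and 3.68 on control and 3.46 on either knockout array, and HLA-DPA1 4.72 and 4.50 against 4.35 and 4.53, all below the array medians. The subunits of the RFX complex, shared by class I and class II promoters, gave -0.04 ± 0.09 for RFX5, 0.02 ± 0.10 for RFXAP and 0.19 ± 0.08 for RFXANK, with adjusted p between 0.255 and 0.950.

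**Figure D2:**
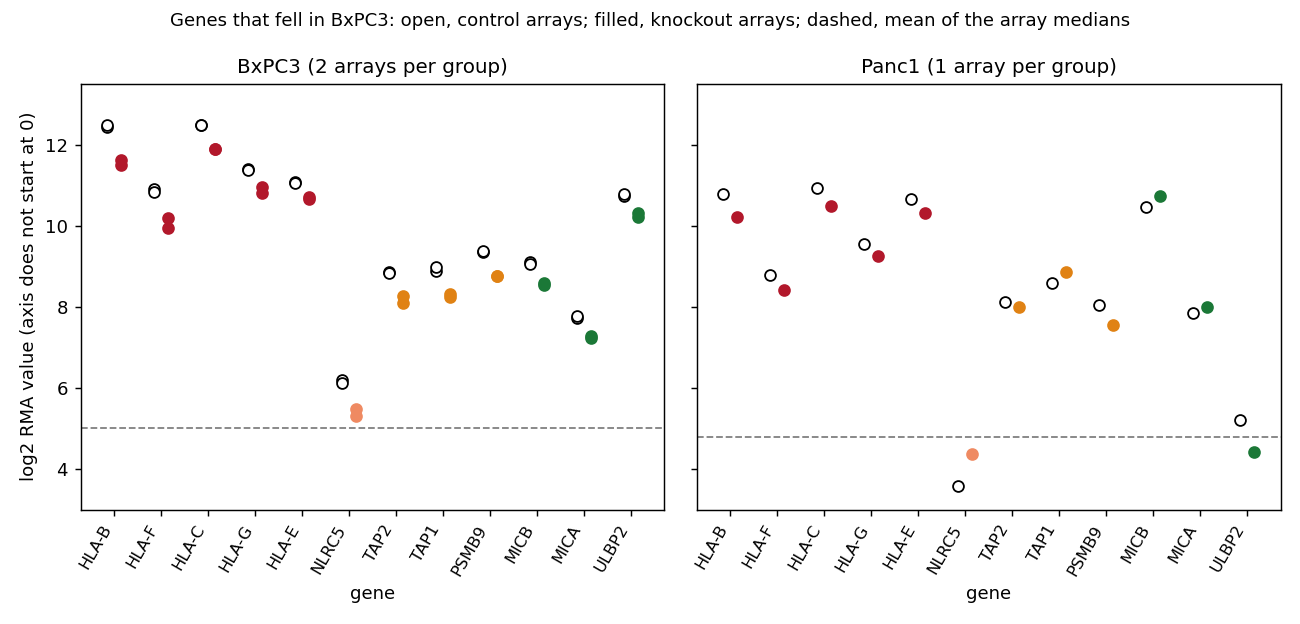
The y axis is the log2 RMA value and the x axis the 12 genes that fell in BxPC3, with BxPC3 on the left and Panc1 on the right; open circles are control arrays, filled circles knockout arrays, and the dashed line is the mean of the array medians. In BxPC3 every filled pair lies below its open pair, whereas in Panc1 NLRC5, TAP1, MICA and MICB read higher on the knockout array, and NLRC5 lies below the dashed line on both Panc1 arrays.

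Of the NKG2D ligands, 3 of 4 tested genes fell in BxPC3, by nearly the same amount, against 3.58% of all genes that fell. MICA read 7.73 and 7.77 on control and 7.27 and 7.22 on knockout arrays (-0.50 ± 0.07, limma adjusted p = 0.0234). MICB read 9.11 and 9.06 against 8.59 and 8.55 (-0.51 ± 0.07, adjusted p = 0.0221). ULBP2, a ligand anchored by a lipid tail, read 10.73 and 10.79 against 10.31 and 10.22 (-0.49 ± 0.07, adjusted p = 0.0288), and its other probe set gave -0.65. For each of the 3 genes the knockout arrays lay below both controls, as in 26.8% of all genes. The calls of MICA and MICB ended under 5 of 13 alternatives and that of ULBP2 under 6. ULBP3 read 5.99 and 6.18 on control and 5.88 and 5.95 on knockout arrays (-0.17 ± 0.09, adjusted p = 0.371). The untested ULBP1 read 3.96 and 4.33 against 3.93 and 4.02, below the array medians.

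Among the class I-like genes 0 of 3 passed in BxPC3 by limma, and 2 had an unadjusted p under 0.05, against 19.9% of all genes. FCGRT, the neonatal Fc receptor chain that recycles immunoglobulin G and albumin, read 6.53 and 6.71 on control and 7.06 and 7.04 on knockout arrays (0.43 ± 0.08, adjusted p = 0.0634), the highest difference of the 34 genes. It passed under 3 of 13 alternatives. MR1, which presents vitamin B metabolites to mucosal-associated invariant T cells, gave -0.19 ± 0.07 (adjusted p = 0.246). HFE, a regulator of iron uptake, gave 0.07 ± 0.07 (adjusted p = 0.681). CD1D, which presents lipids, was untested and read between 2.30 and 2.36 on the 4 BxPC3 arrays.

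Across the 34 genes, the knockout arrays lay below both control arrays in 22 and above both in 4. Over all genes tested 26.8% lay below and 23.9% above.

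Most of the genes that fell lie in the same stretch of chromosome 6, with other tested genes between most of them. In RefSeq gene order 104 tested genes lie from HLA-F to TAPBP, the stretch that holds the MHC, and 14 of them belong to the genes described here. Of these 14, 10 fell in BxPC3 and the median was -0.53. Those 10 include the 5 heavy chains, whose probe sets can read each other. Of the 20 tested outside that stretch 2 fell, NLRC5 and ULBP2, and the median was -0.07. Among the 90 other genes of the stretch 5 fell and 0 rose, which is 5.56% against 3.58% of all genes, and their median was 0.04. These 5, identified after their values were seen, were the class I pseudogene HLA-J (-0.63), the ubiquitin ligase gene TRIM31 (-0.74), the non-coding RNA gene HCP5 (-1.10), the lysosomal sialidase gene NEU1 (-0.72) and the complement factor gene CFB (-1.55). HLA-J is of the same family as the heavy chains, and whether its probe set reads their transcripts was not tested. The MHC stretch was not tested as a set.

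**Figure D3:**
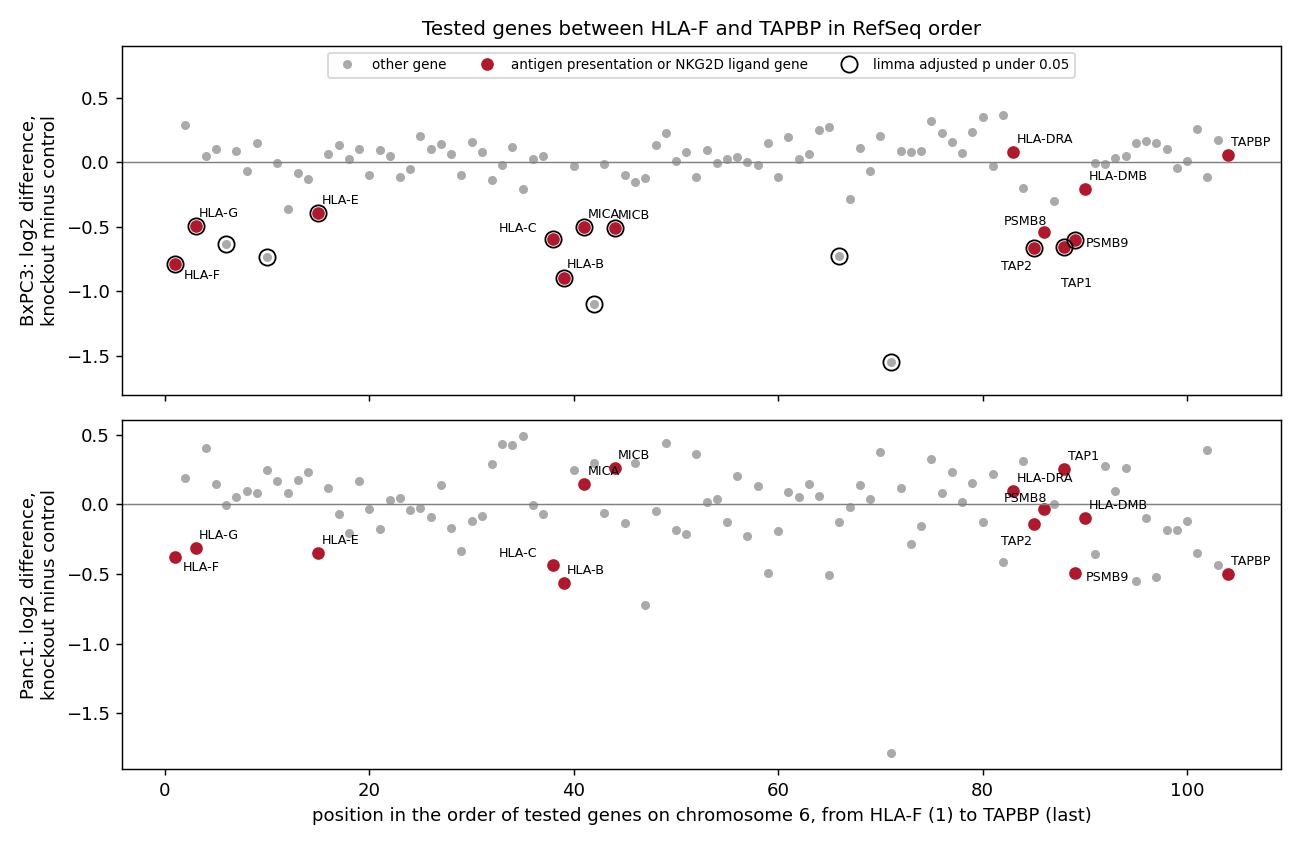
The x axis is the position among the 104 tested genes from HLA-F to TAPBP in RefSeq order, and the y axis the log2 difference, knockout minus control, in BxPC3 (top) and Panc1 (bottom). Red points are the 14 antigen presentation and NKG2D ligand genes, grey points the 90 others, and rings mark a limma adjusted p under 0.05 in BxPC3; 10 red and 5 grey points are ringed, all below 0.

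In Panc1, which has 1 array per group and so no replicate check, ERAP2 alone of the 34 genes was at least 2-fold lower and 0 were at least 2-fold higher. Over all genes tested 3.28% were that much lower and 0.577% higher. ERAP2 read 6.71 in control and 5.54 in knockout cells (-1.17), and its other probe sets gave -0.90, -0.97, -0.41 and -0.37. With the probe sets of a gene averaged, or with arrays centred, 0 of these genes reached 2-fold. Past 2-fold in either direction were 3.86% of all genes. The median of the 34 genes was -0.11, against 0.00 for all genes tested, and 21 lay below 0, against 49.4% of all genes.

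The 5 heavy chains were each lower on the Panc1 knockout array, with differences of -0.31 to -0.57. Control and knockout values were 10.79 and 10.22 for HLA-B, and HLA-C read 10.93 and 10.50, HLA-E 10.65 and 10.31, HLA-F 8.79 and 8.41, and HLA-G 9.56 and 9.25. Centring each array on its median tested gene, which moves every Panc1 difference up by 0.197, left them at -0.11 to -0.37. Of their 17 probe sets 16 were lower and 1, a probe set of HLA-F, read 3.88 on both arrays, below both array medians. B2M read 12.85 and 12.77, a difference that turned from -0.08 to 0.12 with arrays centred. The differences of TAP2, PSMB8, ERAP1, HLA-DMB, RFX5 and RFXAP, between -0.03 and -0.14, also changed sign with arrays centred.

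Other genes of peptide supply and loading lay on both sides of 0 in Panc1. PSMB9 read 8.04 without and 7.54 with the knockout, PSME1 in the same order 10.41 and 9.84, and tapasin (TAPBP) 9.05 and 8.56. PSMB10 instead read 7.85 and 8.35, and TAP1 8.60 and 8.85. The 16 tested genes of the constitutive proteasome were all above 0, with a median of 0.22 that centring raises further. Of all genes tested 49.4% lay below 0. ULBP2 read 5.20 and 4.43, the latter below the array median, and ULBP3 3.82 and 4.27, below both array medians. MICA read 7.86 and 8.01, and MICB 10.46 and 10.72. FCGRT read 6.79 and 5.94 (-0.85), and NLRC5 read 3.58 and 4.38, below the array medians of 4.75 and 4.83. The class II genes HLA-DRA (4.88 and 4.98), CD74 (5.24 and 5.46) and CIITA (4.35 and 4.67) stayed close to those medians.

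**Figure D4:**
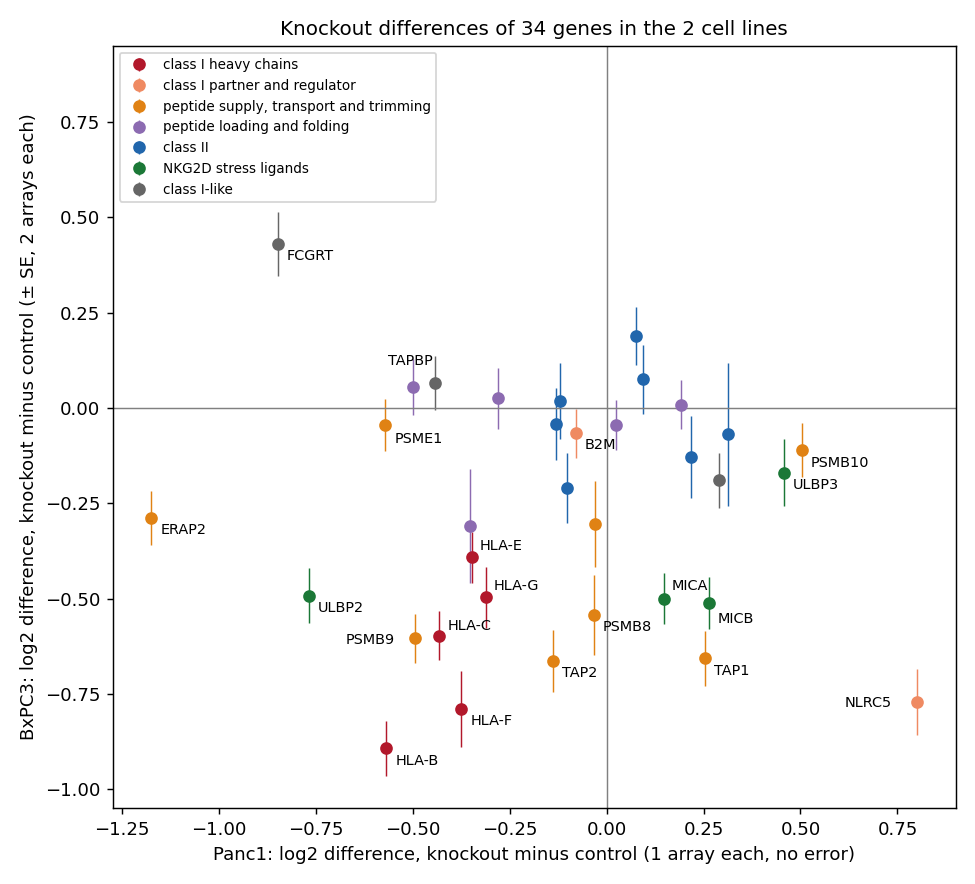
The x axis is the Panc1 and the y axis the BxPC3 log2 difference, knockout minus control, of the 34 tested genes, coloured by group; vertical bars are limma SE, and Panc1 has no error. Heavy chains lie at the lower left, NLRC5, TAP1, MICA and MICB at the lower right, FCGRT at the upper left, and class II genes near the centre.

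Of the 12 genes that fell in BxPC3, 8 lay below 0 and 4 above 0 in Panc1, where 49.4% of all genes lay below 0. The 8 include the 5 heavy chains, whose probe sets can read each other, and TAP2, which changed sign with arrays centred. Tested over both lines with cell line as a term, 0 of the 34 passed limma, and 11 had an unadjusted p under 0.05, as did 11.8% of all genes. At the adjusted threshold 0.0834% of all genes passed. The smallest adjusted p were those of HLA-B (-0.79, 0.0974), PSMB9 (-0.57, 0.102) and HLA-C (-0.54, 0.109), and HLA-B (0.0369) and HLA-C (0.0312) passed when the variance prior followed expression.

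The knockout difference itself differed between the lines for 8 of the 34 genes by limma, against 14% of all genes. The test lends the spread of BxPC3 to the unreplicated Panc1 arrays. For NLRC5 the BxPC3 minus Panc1 contrast was -1.57 ± 0.15 (adjusted p = 0.00802). NLRC5 entered the test through the BxPC3 arrays, both its Panc1 readings lay below the array medians, and its contrast is therefore no measure of a change in Panc1. For TAP1 it was -0.91 ± 0.13 (0.0175), for MICB -0.77 ± 0.12 (0.0209), for MICA -0.65 ± 0.12 (0.0292) and for PSMB10 -0.61 ± 0.12 (0.0375). In these genes the BxPC3 difference was below the Panc1 difference. It was above for FCGRT (1.28 ± 0.15, 0.0117), ERAP2 (0.89 ± 0.12, 0.0175) and PSME1 (0.53 ± 0.12, 0.0485). The 5 heavy chains did not pass this test, with adjusted p between 0.148 (HLA-B, -0.33 ± 0.13) and 0.821 (HLA-E). With any single BxPC3 array left out, all 8 contrasts kept their sign, but which genes passed depended on the arrays in the fit.

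Interferon gamma, a cytokine that raises class I genes, signals through a receptor, STAT and IRF factors. Of the 10 tested from a list of 12 for interferon gamma signalling, 0 passed limma and 5 had an unadjusted p under 0.05 in BxPC3. The 10 had a median of -0.21 and 8 of them lay below 0. Over all genes tested there, 19.9% had such a p and 49.3% lay below 0. The receptor chain IFNGR1 gave -0.25 ± 0.09, the transcription factors IRF1 and IRF9 -0.37 ± 0.09 (adjusted p = 0.0969) and -0.36 ± 0.07 (adjusted p = 0.0646), and the feedback inhibitor SOCS1 -0.37 ± 0.08 (adjusted p = 0.0814). In Panc1 9 of the 10 lay below 0, against 49.4% of all genes, with a median of -0.42. IRF9 there read 7.62 in control and 6.45 in knockout cells.

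Immune cell markers read near or below the array median on average, and endothelial markers above it in BxPC3. Of the markers of B cells, macrophages and dendritic cells 12 of 14 were measured, 5 of them below the median on every array, with list means of 4.36 to 4.58 on the BxPC3 arrays and 4.31 to 4.44 on the Panc1 arrays. CD14, a co-receptor for bacterial lipopolysaccharide, was the 1 of 7 tested that fell in BxPC3 (-0.43 ± 0.07, limma adjusted p = 0.0422). Of all genes tested 3.58% fell. Of T and NK cell markers 6 of 7 were measured, 3 of them below the median on every array, with means of 4.54 to 4.71 in BxPC3 and 4.31 to 4.57 in Panc1. Of 3 endothelial markers, CDH5 fell in BxPC3 (-2.19, limma adjusted p = 0.00579), and PECAM1 and VWF gave -0.02 and 0.21, with list means of 5.30 to 6.10 in BxPC3 and 4.54 to 4.73 in Panc1. RMA gives no value of 0. The part of other cells in the results was not tested.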

How the data were processed

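Expression was measured on 6 Affymetrix arrays, and the deposited table holds log2 values that the authors made with RMA and the R package affy, per the submitters' processing notes. Their versions and the choice of arrays per RMA run are not given in the sources used here. Per the labels, RNA had an integrity number of at least 7.

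Of 54613 probe sets, 41091 had a single gene symbol in the platform annotation, 1801 several and 11721 none; 41037 matched RefSeq by gene ID. A gene was represented by its brightest probe set (mean of all arrays) and tested if it exceeded the array median on at least 1 array. The 4 groups were fitted together with limma 3.58.1 in R 4.3.3 (lmFit, eBayes), with Benjamini-Hochberg adjustment over all 14387 genes and a threshold of 0.05. The fit was tested on simulated data. The spread came from the BxPC3 arrays, with 2 residual degrees of freedom, and Panc1 was described by 2-fold differences. The number of arrays limits the precision. Promoter windows came from RefSeq (GRCh38.p14). Values on every array are given for genes past the threshold in BxPC3, past 2-fold in Panc1 or with the smallest p between lines, and for others where a group is described. Of the pathway lists at most 4 genes by smallest BxPC3 p were to be named; those named outside this rule were chosen after their values were seen. The genes and lists were chosen with earlier results of these data known. Alternatives covered filters, probe set choice, scaling, the variance prior, the replicate number as a block and each BxPC3 array left out.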

Additional observations from a re-analysis of the deposited data

Results flagged for a closer look

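The difference between knockout and control differed between the lines for 8 of the 34 genes, by limma's test of the BxPC3 minus Panc1 contrast; 14% of all genes passed that test. It takes the spread of the BxPC3 arrays for the single Panc1 arrays. For NLRC5 the contrast was -1.57 (adjusted p = 0.00802), for TAP1 -0.91 (0.0175), for MICB -0.77 (0.0209), for MICA -0.65 (0.0292) and for PSMB10 -0.61 (0.0375). For FCGRT it was 1.28 (0.0117), for ERAP2 0.89 (0.0175) and for PSME1 0.53 (0.0485). All 8 kept their sign under the 10 alternatives tried, of which the filters and the variance prior leave the contrast as it is. NLRC5 entered through the BxPC3 arrays, and its Panc1 readings of 3.58 and 4.38 lay below the array medians, so its contrast is no measure of a change in Panc1. It passed in all 10 (adjusted p between 0.00235 and 0.0483), FCGRT in 9 (0.00196 to 0.0606), MICB (0.0019 to 0.131) and TAP1 (0.00199 to 0.107) in 8, ERAP2 (0.00157 to 0.106), MICA (0.0108 to 0.174) and PSMB10 (0.0086 to 0.203) in 7, and PSME1 in 6 (0.00339 to 0.252).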

How the results depend on the processing

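All 12 genes that fell in BxPC3 stayed below 0 under the 13 alternatives, of which only probe set averaging and the 2 scalings could have changed a sign. The count of the 34 genes that passed there was 7 with the replicate number as a block (HLA-E, HLA-G, MICA, MICB and ULBP2 did not pass, adjusted p between 0.0703 and 0.130), 9 when dim genes were kept (HLA-E, HLA-G and ULBP2 did not, 0.0592 to 0.0917), and ran from 0 to 12 with each array left out, where 1 residual degree of freedom remains; the genes of all that passed, 679 as reported, numbered 445 with no filter on dim probe sets, 1317 with a variance prior that follows expression, 384 with the replicate block, and 89 to 610 with an array left out. Arrays with the same replicate number did not deviate together (correlation -0.166), and with the numbers crossed, an alternative chosen after seeing the data, 8 of the 34 and 455 of all genes passed. In Panc1 the 1 gene past 2-fold became 0 with probe sets averaged or with arrays centred, and the 555 of all genes became 323 with probe sets averaged; 472 were lower and 83 higher as reported, against 301 and 152 with arrays centred. Over both lines 2 of the 34 passed with the variance prior following expression, against 0. Between lines 8 of the 34 and 14% of all genes passed as reported. With no filter 5 of the 34 and 5.27% of all genes passed, and with that prior 13 and 23.1%. The count also changed with an array left out. The cause of these shifts was not tested. Of the 34 genes, 25 kept their Panc1 sign under 5 alternatives.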

Other observations

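Genes around the presentation pathway included some that fell in BxPC3. Of 7 tested proteases of class II and cross-presentation, 2 fell and 6 lay below 0, with a median of -0.27. Over all genes tested 3.58% fell and 49.3% lay below 0. The lysosomal proteases cathepsin B (CTSB) and cathepsin L (CTSL) gave -0.47 ± 0.07 (limma adjusted p = 0.0276) and -0.38 ± 0.06 (0.0415). Their knockout arrays lay below both controls, as in 26.8% of all genes. In Panc1 CTSB and CTSL gave -0.33 and -0.38 on single arrays.

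Of 16 tested genes for ligand shedding and for other ligands of NK and T cell receptors, 2 fell in BxPC3 and 12 lay below 0. The shares of all genes were 3.58% and 49.3%. The median of the 16 was -0.14. ICAM1, an adhesion ligand of the integrin LFA-1, read 9.13 and 9.20 on control and 8.66 and 8.48 on knockout arrays (-0.59 ± 0.09, limma adjusted p = 0.0289), and -0.78 was its difference in Panc1. The lectin gene LGALS9 read 7.17 and 7.19 against 6.69 and 6.71 (-0.48 ± 0.07, adjusted p = 0.0229), and its Panc1 difference was -0.09. PVR, a ligand of DNAM-1, and CD274, the gene of PD-L1, gave -0.39 ± 0.07 (adjusted p = 0.0615) and -0.39 ± 0.10 (adjusted p = 0.110). The sheddases ADAM10 and ADAM17, which can release MICA and MICB from the surface, gave -0.02 ± 0.09 and 0.03 ± 0.07.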
